A study of Rattus norvegicus with 18 samples.

Results

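The prefrontal cortex (PFC) of rat pups exposed to oxycodone (oxy) in utero was compared with that of pups of saline-treated dams, across all genes measured by RNA-seq. The pups were chosen by their treatment label alone: 6 carried the label of in utero exposure (IUO) and 6 that of saline control (SAL), which made 12 of the 18 pups sequenced. All were Sprague Dawley rats taken at postnatal day 14 (P14), and no genotype other than the strain was given. IUO dams were gavaged with oxy from before mating, starting at 10 mg/kg/day and raised stepwise to 15 mg/kg/day, and dosing went on through gestation and birth until weaning, so that at P14 IUO pups had met the drug through both placenta and milk. SAL dams received the saline vehicle by gavage. The remaining 6 pups (PNO), whose dams were gavaged with 15 mg/kg/day only from birth on, share the SAL controls, and their values are given beside some genes. The comparison asks which transcripts of the developing PFC differ after exposure that began before birth. The labels do not name the dam of any pup, so p-values measure only the spread between these pups, some of which may be littermates.

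Oxycodone acts mainly at the mu opioid receptor, a receptor coupled to inhibitory G proteins that lower cyclic AMP and open potassium channels. The drug crosses the placenta and passes into milk, and opioid receptors are present in the fetal brain. In the postnatal weeks of the rat the PFC forms synapses, gains its inhibitory interneurons' mature properties and begins to be wrapped in myelin, while microglia, the resident immune cells of brain tissue, remove surplus synapses.

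Several features of the 12 libraries stood apart from the group labels. Expected counts summed to between 18381819 and 24518150 per SAL pup and between 18643283 and 26084780 per IUO pup. Reads of Y-linked genes summed to between 112 and 124 CPM (counts of a gene scaled to the library's size) in 5 of 6 SAL pups and to 1.05 CPM in SAL pup 5, whereas 3 of 6 IUO pups held Y-linked reads and the other 3 had no more than 1.49 CPM. The labels give no sex per pup. The study's list of animals has males and females in equal number in each group, which the Y-linked reads of the SAL pups do not match. The share of pups with Y-linked reads thus differed between the groups, and a comparison of the 5 SAL and 3 IUO pups with Y-linked reads is given beside several lists that it moved. In that comparison 9.12% of all genes passed an unadjusted p under 0.05. On the first principal component, which held 30.0% of the variance of the 12 pups, SAL pup 4 (-52.8) and SAL pup 6 (59.5) formed the ends and IUO pup 5 (42.7) lay next to SAL pup 6. The spread between pups was larger in SAL than in IUO for 73.2% of the genes, with a median SD of 0.26 in SAL and 0.19 in IUO on the log2 CPM scale. Excitatory neuron and cortical layer markers, which define the labelled tissue, were present in every pup, with summed levels between 2020 and 3690 CPM in SAL and between 2360 and 3580 CPM in IUO.

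No gene among the 15703 tested differed between IUO and SAL pups after Benjamini-Hochberg adjustment of edgeR's quasi-likelihood test, in which the smallest adjusted p was 0.0997, shared by 5 genes. At an unadjusted p under 0.05 the same test passed 1081 genes (6.88% of those tested), of which 474 (3.02%) were higher and 607 (3.87%) lower in IUO. With a change of at least 1.5-fold as well, 251 genes (1.6%) remained, 94 higher (0.599%) and 157 lower (1.0%). In 117 genes (0.745%) the groups did not overlap, every IUO pup lying above every SAL pup in 58 genes (0.369%) and below every SAL pup in 59 (0.376%). DESeq2 on the same counts gave 49 genes at an adjusted p under 0.05, and limma-voom with sample quality weights gave 43.

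Differences were small for most of the transcriptome. For 83.0% of the genes the group means differed by less than 1.2-fold, the median log2 fold change was -0.0073, and 48.0% of the genes were higher in IUO. The median standard error (SE) of a log2 fold change was 0.145, which corresponds to 1.11-fold. Group membership accounted for 9.8% of the squared distance between the 12 pups. An exact permutation test over all 924 divisions into 6 and 6, counting shares at least as large, gave p = 0.303. Because no gene passed the adjusted threshold, "higher" and "lower" are used here for observed levels and not for established changes.

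Among the genes with the smallest p-values, those lower in IUO included *Selplg* and *Tmem119*, both known as transcripts of microglia. *Selplg* encodes the ligand of P-selectin, a surface protein of leukocytes and microglia. Its level lay between 4.97 and 8.91 CPM (median 6.28) in SAL pups and between 1.52 and 4.18 CPM (median 3.04) in IUO pups. Every IUO pup was below every SAL pup, and the PNO pups, between 5.75 and 8.46 CPM (median 6.57), overlapped SAL. The log2 fold change of *Selplg* between IUO and SAL was -1.14 (SE 0.20, adjusted p = 0.0997 by edgeR's quasi-likelihood test). *Tmem119* encodes a membrane protein that distinguishes microglia from other macrophages. Its SAL levels ranged between 6.70 and 22 CPM (median 10.7) and its IUO levels between 2.90 and 6.0 CPM (median 5.53), again without overlap, although the lowest SAL pup and the highest IUO pup lay close together. For *Tmem119* the log2 fold change was -1.34 (SE 0.24), with the same adjusted p. PNO pups had between 10.4 and 14.1 CPM (median 12.8), and their own log2 fold change against the same SAL pups was -0.028 (SE 0.24). When each of the 12 pups was left out in turn, the adjusted p ranged from 0.0639 to 0.285 for *Selplg* and from 0.0591 to 0.285 for *Tmem119*.

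**Figure D1:**
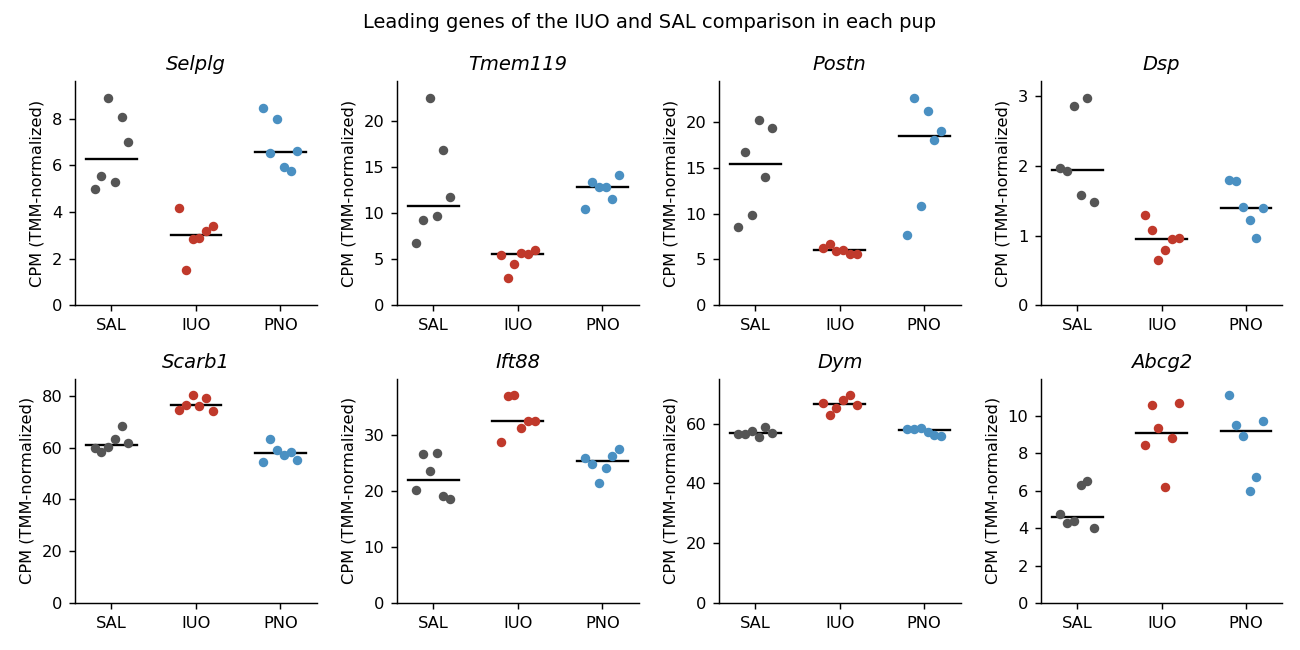
Levels of 8 leading genes in every pup, as TMM-normalized CPM on linear axes from 0, for SAL (grey), IUO (red) and PNO (blue); each point is a pup and each bar the median of 6. *Selplg*, *Tmem119*, *Postn* and *Dsp* lie lower in all IUO pups than in any SAL pup, *Scarb1*, *Ift88* and *Dym* lie higher, and *Abcg2* is higher in IUO and PNO pups with some overlap.

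*Selplg* and *Tmem119* follow each other directly in the RefSeq gene order of the rat genome (GRCr8), with 0 protein-coding genes between them. Of the 5 protein-coding genes on each side, 9 were tested, and their log2 fold changes lay between -0.142 and 0.538. None of these neighbours was lower in IUO at an unadjusted p under 0.05. *Coro1c*, an actin-binding coronin, and *Cmklr1*, the chemerin receptor, passed that limit in the opposite direction, with log2 fold changes of 0.14 (SE 0.056) and 0.54 (SE 0.23). The other markers of microglia and macrophages lay on both sides of 0. Of 20 tested members, 11 were higher and 9 lower in IUO, and the median log2 fold change was 0.031 (-0.0034 without IUO pup 1). *Selplg* and *Tmem119* alone passed an unadjusted p under 0.05 (10.0%, against 6.88% of all genes). Summed levels of the list lay between 340 and 444 CPM in SAL and between 347 and 423 CPM in IUO. In tissue of mixed cells, fewer cells of a type and less RNA per cell cannot be told apart.

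**Figure D2:**
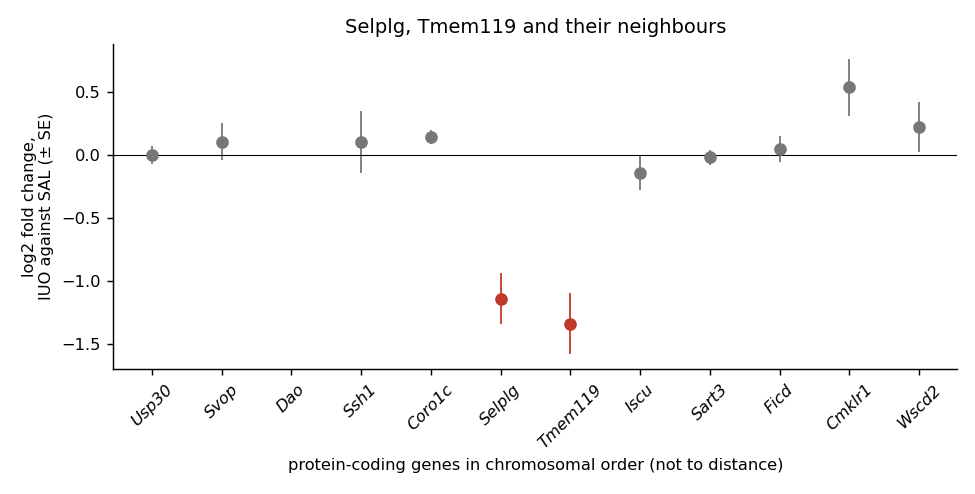
Log2 fold change between IUO and SAL (point) with its SE (bar) for *Selplg*, *Tmem119* and the 5 protein-coding genes on each side in chromosomal order, not drawn to distance; *Dao* was not tested. *Selplg* (-1.14) and *Tmem119* (-1.34) lie below 0, while the 9 tested neighbours lie between -0.142 and 0.538.

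Other genes among the 12 lower ones with the smallest p-values encode proteins of matrix and cell junctions. *Postn*, which encodes the matrix protein periostin, lay between 8.53 and 20.2 CPM (median 15.4) in SAL and between 5.56 and 6.64 CPM (median 6.01) in IUO. The IUO pups were tightly grouped below all SAL pups (log2 fold change -1.30, SE 0.25, adjusted p = 0.114 by edgeR). *Dsp*, which encodes desmoplakin of the desmosome, lay between 1.48 and 2.98 CPM (median 1.95) in SAL and between 0.655 and 1.29 CPM (median 0.955) in IUO. No IUO pup reached the SAL range (log2 fold change -1.16, SE 0.22, adjusted p = 0.114), and PNO pups lay between 0.959 and 1.80 CPM (median 1.40), partly within both ranges. *Dsp* also belongs to the terms that the study drew from these same samples.

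The remaining lower genes in this set serve transport, metabolism and the nucleus. *Slc5a5*, the sodium/iodide symporter, had between 2.30 and 5.36 CPM (median 3.41) in SAL and between 1.58 and 2.15 CPM (median 1.68) in IUO. *Rtel1*, a DNA helicase that protects telomeres, had between 54 and 70.1 CPM (median 61) in SAL and between 25.2 and 45.8 CPM (median 38.3) in IUO. In both genes every IUO pup was below every SAL pup, with log2 fold changes of -1.03 (SE 0.23) and -0.76 (SE 0.17). *Rtel1* was not uniform in PNO pups, which lay between 34.4 and 63 CPM (median 47). *Tkfc*, which encodes a kinase of dihydroxyacetone and glyceraldehyde, lay between 5.14 and 6.23 CPM (median 5.88) in SAL and between 3.54 and 4.55 CPM (median 3.72) in IUO. The groups of *Tkfc* did not overlap (log2 fold change -0.58, SE 0.12). The same held for *Taf15*, an RNA-binding protein of the transcription machinery (log2 fold change -0.40, SE 0.084), for *Phf13*, a chromatin reader (log2 fold change -0.31, SE 0.060), and for *Bcl6b*, a transcriptional repressor (log2 fold change -0.55, SE 0.13). In PNO pups the log2 fold changes against SAL were -0.38 (SE 0.13) for *Bcl6b* and -0.20 (SE 0.060) for *Phf13*. They were -0.16 (SE 0.12) for *Tkfc* and -0.059 (SE 0.084) for *Taf15*. *Cmc1*, a factor of cytochrome c oxidase assembly, overlapped through IUO pup 4 at 7.01 CPM (log2 fold change -1.01, SE 0.22). *Csad*, the decarboxylase on the main route to taurine, lay between 21.8 and 28 CPM (median 25.4) in SAL and between 17.3 and 22.2 CPM (median 19.1) in IUO. Its groups overlapped narrowly, through SAL pup 5 and IUO pup 1 (log2 fold change -0.37, SE 0.087, adjusted p = 0.235 by edgeR).

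The 12 genes higher in IUO with the smallest p-values had log2 fold changes between 0.22 and 1.04, most with little spread between pups. *Scarb1*, which encodes the scavenger receptor that takes cholesteryl ester from high-density lipoprotein, had the smallest p-value of all genes. Its level lay between 59 and 68.4 CPM (median 61) in SAL pups and between 74 and 80.2 CPM (median 76.3) in IUO pups. All IUO pups exceeded all SAL pups, by 1.24-fold in the fit (log2 fold change 0.31, SE 0.052, adjusted p = 0.0997 by edgeR's quasi-likelihood test), and PNO pups lay between 54.4 and 63.2 CPM (median 57.8). *Ift88*, a core part of the transport train that builds primary cilia, lay between 18.6 and 26.7 CPM (median 21.9) in SAL and between 28.6 and 37 CPM (median 32.4) in IUO. These ranges did not overlap either (log2 fold change 0.56, SE 0.10, adjusted p = 0.0997). *Dym*, which encodes the Golgi-associated protein dymeclin, had between 56 and 58.9 CPM (median 56.8) in SAL and between 63 and 70 CPM (median 67) in IUO. The SAL pups of *Dym* covered only a few CPM and the IUO pups lay above them (log2 fold change 0.22, SE 0.041, adjusted p = 0.112).

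Further genes of the higher set were *Pabpc1*, the main cytoplasmic poly(A)-binding protein (log2 fold change 0.26, SE 0.054), *Sfxn1*, a mitochondrial serine transporter (log2 fold change 0.35, SE 0.077), and *Arhgef10l*, an exchange factor for small GTPases (log2 fold change 0.29, SE 0.063). In these, and in *Zfp358*, a zinc finger gene (log2 fold change 0.37, SE 0.081), *F2r*, the thrombin receptor (log2 fold change 0.28, SE 0.062), and *Lsp1*, an actin-binding protein of leukocytes (log2 fold change 1.04, SE 0.23), every IUO pup was above every SAL pup. The highest SAL and lowest IUO pup of *F2r* were nearly equal. In PNO pups the log2 fold change against SAL was 0.62 (SE 0.23) for *Lsp1* and 0.16 (SE 0.062) for *F2r*. Those of *Pabpc1*, *Sfxn1*, *Arhgef10l* and *Zfp358* lay between -0.07 and 0.076. *Vwa3a*, between 23.1 and 40.9 CPM (median 30.3) in SAL and between 38.1 and 60.7 CPM (median 49) in IUO, overlapped through SAL pup 1 (log2 fold change 0.64, SE 0.13). *Deaf1*, a transcription factor, overlapped through SAL pup 4 (log2 fold change 0.45, SE 0.10).

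*Abcg2*, the efflux transporter of the blood-brain barrier known as breast cancer resistance protein, lay between 4.0 and 6.5 CPM (median 4.59) in SAL and between 6.22 and 10.7 CPM (median 9.10) in IUO. IUO pup 4 was the single IUO pup within the SAL range (log2 fold change 0.84, SE 0.18, adjusted p = 0.186 by edgeR). PNO pups had between 5.97 and 11.1 CPM (median 9.20), with a log2 fold change of 0.78 (SE 0.18) against the same SAL pups. Of the 9 tested transcripts on the list of drug efflux and oxycodone metabolism, *Abcg2* was the only one higher at an unadjusted p under 0.05, and 2 of the 9 passed in all (22.2%, against 6.88% of all genes). One of the 2 identifiers named *Cyp3a9*, of the family that demethylates oxycodone, was lower (log2 fold change -0.80, SE 0.30), while the other had a log2 fold change of 0.25. *Abcb1a*, which encodes P-glycoprotein, had a log2 fold change of -0.05.

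**Figure D3:**
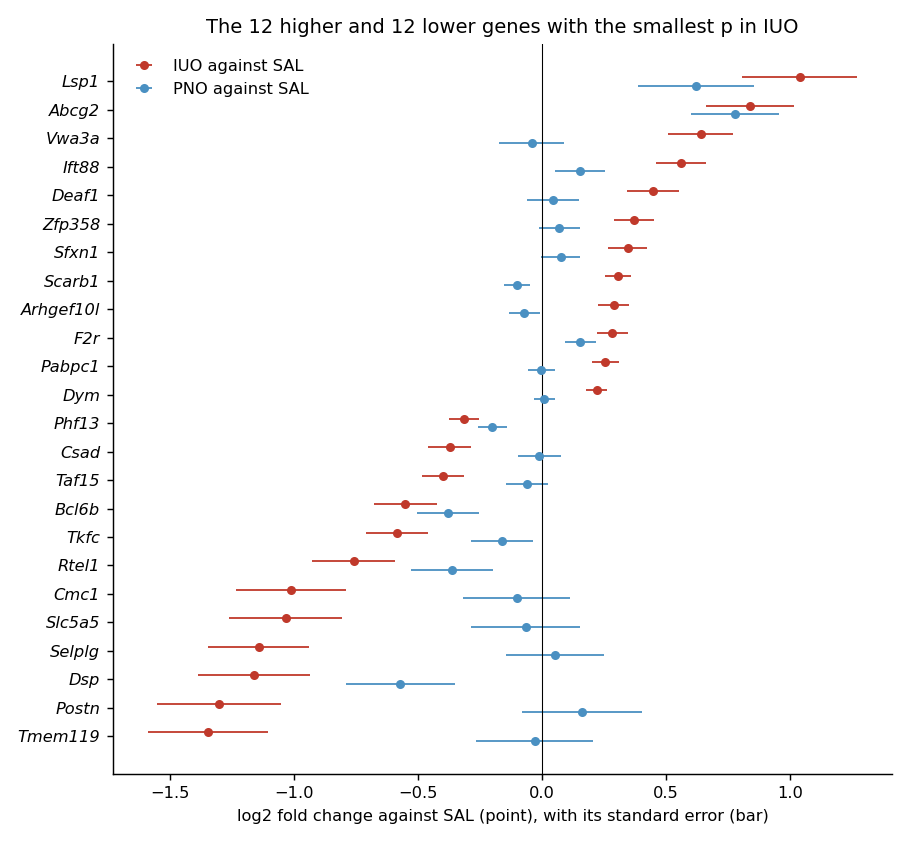
Log2 fold changes (points) with SE (bars) of the 12 higher and 12 lower genes with the smallest p in IUO against SAL (red), and of the same genes in PNO against the same SAL pups (blue). The red points run from -1.34 for *Tmem119* to 1.04 for *Lsp1*; the PNO value of *Abcg2* (0.78) lies near its IUO value (0.84), and that of *Tmem119* (-0.03) lies near 0.

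None of these 24 genes reversed direction in the 26 alternative fits, and none reached an adjusted p under 0.05 when a pup was left out. DESeq2 gave all 24 an adjusted p under 0.05, and limma-voom 19 of them. Genes known only by clone names were left out of this set. One of them, AABR07001512.1, shared the smallest adjusted p and was chosen for mention after its values were seen. It lay between 0.159 and 5.33 CPM in SAL and at no more than 0.0876 CPM in IUO, while PNO pups ranged from 0 to 3.78 CPM.

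The receptors and peptides of the opioid system, the targets of the drug and its endogenous counterparts, showed no member past an unadjusted p under 0.05 among 8 tested, and the smallest adjusted p was 0.896 by edgeR. Of these 8, 5 were higher in IUO and 3 lower, and the list's median was 0.14 on the log2 scale. *Oprm1*, the mu receptor, lay between 0.318 and 2.06 CPM (median 0.586) in SAL and between 0.626 and 1.23 CPM (median 0.769) in IUO. The ranges overlapped almost wholly, with SAL pup 6 the highest of the 12 (log2 fold change 0.043, SE 0.53). *Oprk1*, the kappa receptor, lay between 1.22 and 7.68 CPM (median 2.90) in SAL and between 3.78 and 8.56 CPM (median 4.14) in IUO (log2 fold change 0.53, SE 0.40). SAL pup 1 and IUO pup 2 were far above the other pups of their groups. *Oprd1*, the delta receptor (log2 fold change 0.23, SE 0.36), and *Oprl1*, the nociceptin receptor (log2 fold change -0.13, SE 0.15), overlapped between groups as well.

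Among the peptide precursors, *Pomc* of the endorphins lay between 0.824 and 7.5 CPM (median 1.85) in SAL and between 1.58 and 2.72 CPM (median 1.93) in IUO. The SAL range was set by pups 2 and 4, and the medians of the groups were close (log2 fold change -0.60, SE 0.42). *Penk* of the enkephalins lay between 34.7 and 314 CPM (median 47.6) in SAL and between 43 and 293 CPM (median 93.2) in IUO, with SAL pups 1 and 3 and IUO pups 1 and 2 highest (log2 fold change 0.28, SE 0.63). *Pdyn* of the dynorphins (log2 fold change 0.32, SE 0.36) and *Pnoc* of nociceptin (log2 fold change -0.12, SE 0.23) overlapped between groups. *Penk* and *Pdyn* are also markers of striatal neurons, described with that list. The median of the opioid list turned to -0.0976 without IUO pup 2, to -0.00506 without SAL pups 4 and 6, to -0.0603 with the striatal score as a covariate and to -0.249 when only pups with Y-linked reads were compared. Without SAL pup 1, 2 members were higher at an unadjusted p under 0.05, and with the erythroid score (the mean log2 CPM of red cell genes in each pup) as a covariate 3 were higher, with a median of 0.544. A replicate block (1 term for each pup number) and the myelin score as a covariate each put 1 member past the limit.

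Downstream of the receptors, 53 transcripts of G proteins, adenylyl cyclases, arrestins, regulators of G protein signalling and G protein-gated potassium channels were tested. Of these, 35 were higher and 18 lower in IUO, and 4 (7.55%) passed an unadjusted p under 0.05, near the 6.88% of all genes. *Prkar2b*, a regulatory subunit of protein kinase A (log2 fold change 0.22, SE 0.10), and *Rgs14*, which speeds the shut-off of inhibitory G proteins (log2 fold change 0.52, SE 0.25), were higher. *Gng13*, a G protein gamma subunit (log2 fold change -0.53, SE 0.24), and *Rgs10*, an RGS protein known from microglia (log2 fold change -0.34, SE 0.15), were lower. The 4 genes overlapped between the groups. The count was 0 without IUO pup 4 or IUO pup 5, and 2 without SAL pup 2, 4 or 6 or IUO pup 1, 3 or 6. It was 9 with the replicate block, which passed 7.44% of all genes, and 14 with limma-voom, which passed 17.3%. The list median ran from 0.0167 (without IUO pup 5) to 0.101 (without SAL pup 6).

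Ionotropic glutamate receptors and their auxiliary subunits carry fast excitatory transmission. Of 28 tested, 5 were higher in IUO and 1 lower at an unadjusted p under 0.05, together 21.4% against 6.88% of all genes, and 19 of the 28 had a log2 fold change above 0 with a median of 0.069. *Grid1*, a delta receptor of the synaptic cleft, lay between 32.6 and 40 CPM (median 36.9) in SAL and between 43.9 and 52.7 CPM (median 47) in IUO. Its groups did not overlap (log2 fold change 0.36, SE 0.089, adjusted p = 0.264 by edgeR). *Grik5*, a kainate receptor subunit, had between 216 and 238 CPM (median 223) in SAL and between 241 and 291 CPM (median 271) in IUO, likewise without overlap (log2 fold change 0.26, SE 0.078, adjusted p = 0.487). *Grik2*, its usual partner, lay between 55.2 and 88.3 CPM (median 63.2) in SAL and between 70.4 and 102 CPM (median 78.3) in IUO. SAL pup 1 reached the IUO range, and the other 5 SAL pups lay below all IUO pups (log2 fold change 0.36, SE 0.13). The AMPA receptor auxiliary subunits *Cnih2* (log2 fold change 0.30, SE 0.11) and *Cacng8* (log2 fold change 0.24, SE 0.10) were higher too, with overlap. *Grin2c*, an NMDA receptor subunit, was lower (log2 fold change -0.28, SE 0.12). The AMPA receptor subunits themselves were not past the limit, with log2 fold changes of 0.17 for *Gria1*, 0.06 for *Gria2*, 0.01 for *Gria3* and -0.21 for *Gria4*, which were looked up after the list's values were seen. When each pup was left out in turn, between 4 and 8 members passed the same limit and between 15 and 23 were higher, with medians from 0.0176 (without SAL pup 4) to 0.229 (without SAL pup 6), and among pups with Y-linked reads 5 passed, with a median of 0.237.

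Metabotropic glutamate receptors had 1 of 7 members past that limit (14.3%, against 6.88% of all genes). This was *Grm8*, which was lower (log2 fold change -0.26, SE 0.12). The number was 0 without SAL pup 2, 5 or 6 or IUO pup 1, 2, 4 or 5, and 2 without SAL pup 1. *Grm2*, an inhibitory autoreceptor, had a log2 fold change of -0.39 (SE 0.23). Scaffolds and adhesion proteins of the postsynapse were higher in 22 of 26 members, with a median of 0.084 against -0.0073 over all genes, and 0 passed an unadjusted p under 0.05. *Nrxn2*, a neurexin, had 0.22 (SE 0.12) and *Dlg1*, a scaffold, -0.13 (SE 0.074) on the log2 scale. These values varied with the libraries. Without IUO pup 5, 13 members were higher and 13 lower, and with the myelin score as a covariate 10 were higher. Without SAL pup 6, 24 were higher with a median of 0.188, without SAL pup 5, IUO pup 1 or IUO pup 2 the number past the limit was 2, and among pups with Y-linked reads 24 were higher, 7 of them past the limit, with a median of 0.276. Of 33 transcripts of the vesicle release machinery, *Rims2*, an active zone scaffold (log2 fold change 0.20, SE 0.086), alone passed the limit (3.03%, against 6.88% of all genes), and 21 were higher. Among pups with Y-linked reads 28 were higher, 5 of them past the limit, and the median was 0.23 in place of 0.047. Leaving out single pups gave between 0 and 4 members past the limit and between 12 and 25 higher, the lowest number without IUO pup 5 and the highest without SAL pup 5.

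**Figure D4:**
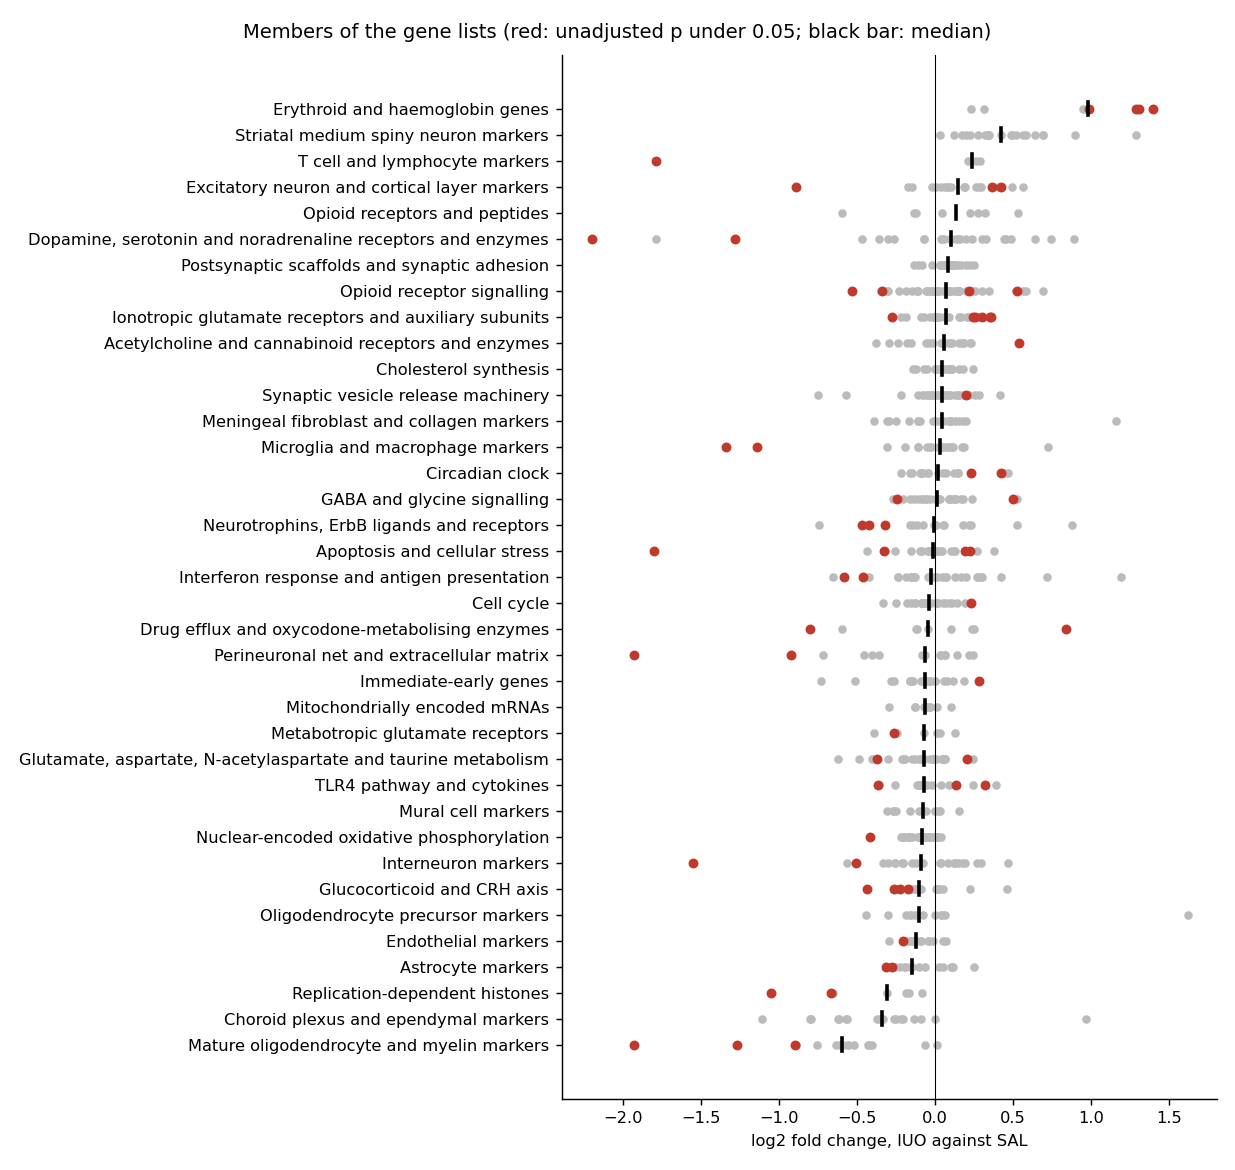
Log2 fold changes between IUO and SAL of the tested members of 37 gene lists, 1 point per transcript, ordered by the list median (black bar); red points have an unadjusted p under 0.05. Erythroid genes lie to the right of 0 (median 0.98), mature oligodendrocyte and myelin markers to the left (median -0.59), and most other medians lie close to 0.

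Of 28 tested genes of GABA and glycine signalling, 1 was higher and 1 lower at an unadjusted p under 0.05, a share of 7.14% near the 6.88% of all genes. *Glra2*, a glycine receptor subunit of the immature brain, lay between 28.4 and 42.9 CPM (median 35.9) in SAL and between 46 and 54.9 CPM (median 50.8) in IUO. The groups did not overlap (log2 fold change 0.50, SE 0.18, adjusted p = 0.561 by edgeR), whereas PNO pups ranged between 26.6 and 64.4 CPM (median 34.4).

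Among 25 interneuron markers, *Pvalb* and *Kcnc1* were lower at an unadjusted p under 0.05 and 0 were higher, a share of 8.0% near the 6.88% of all genes. *Pvalb*, the calcium buffer of fast-spiking interneurons, lay between 3.42 and 24.6 CPM (median 10.8) in SAL and between 2.60 and 5.93 CPM (median 4.71) in IUO. Only SAL pup 6, and SAL pup 1 at 5.95 CPM close to the IUO maximum, had levels near those of the IUO pups (log2 fold change -1.55, SE 0.41, adjusted p = 0.343 by edgeR). PNO pups lay between 10.4 and 34 CPM (median 21). *Kcnc1*, a potassium channel that allows fast firing, lay between 26.7 and 55.4 CPM (median 34.7) in SAL and between 21.3 and 31 CPM (median 27.8) in IUO (log2 fold change -0.50, SE 0.16). All other interneuron markers, among them *Sst*, *Vip* and *Reln*, did not pass, and the list median was -0.087. Without SAL pup 6 it was 0.117, with 15 members higher and 10 lower, and it was also above 0 with limma-voom (0.204) and the replicate block (0.123). Of 15 genes of the perineuronal net, the matrix that ensheathes these cells, *Hapln4* (log2 fold change -0.92, SE 0.38) and *Hapln2* (log2 fold change -1.93, SE 0.76) were lower. They made up 13.3% of the list, against 6.88% of all genes. The number past the limit was 4 without SAL pup 1 or SAL pup 3, 1 without SAL pup 2, SAL pup 4 or IUO pup 1 and 0 with the replicate block, and SAL pups 5 and 6 had less *Hapln2* than any IUO pup. *Hapln2* is also a gene of mature oligodendrocytes.

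Monoamine genes held 2 of 27 members past the limit (7.41%, near the 6.88% of all genes), both lower. *Htr5b*, a serotonin receptor, lay between 0.210 and 9.26 CPM (median 1.53) in SAL and between 0.322 and 1.05 CPM (median 0.679) in IUO (log2 fold change -2.20, SE 0.76). The high SAL values were those of pups 2, 4 and 6. *Th*, the rate-limiting enzyme of dopamine synthesis, lay between 1.86 and 14.8 CPM (median 5.58) in SAL and between 1.54 and 3.84 CPM (median 2.83) in IUO (log2 fold change -1.28, SE 0.60). No member passed without SAL pup 4, and without SAL pup 1, 3 higher and 2 lower members did. The replicate block put 4 higher and 0 lower members past the limit, limma-voom 2 higher and 0 lower, and the erythroid covariate 7 higher and 2 lower. Among 20 cholinergic and cannabinoid genes, *Cnr2*, the cannabinoid receptor of immune cells, alone passed the limit and was higher (log2 fold change 0.54, SE 0.23), where 6.88% of all genes passed. The number was 0 without SAL pup 1, 2, 4 or 5 or IUO pup 2, 3 or 5, and 2 without SAL pup 3. Of 23 immediate-early genes, which report recent neuronal activity, *Jund* alone was higher at the limit (log2 fold change 0.28, SE 0.11; 4.35%, against 6.88% of all genes), a call lost without SAL pup 6 or IUO pup 6, and *Arc* had -0.51 (SE 0.36) without passing.

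Enzymes and carriers of glutamate, aspartate, N-acetylaspartate and taurine had 9 of 28 members higher and 19 lower, and 2 (7.14%, near the 6.88% of all genes) passed the limit. Without SAL pup 1 or IUO pup 5 the number was 4. Beside *Csad*, *Asns*, the enzyme that makes asparagine from aspartate, passed the limit (log2 fold change 0.20, SE 0.073). It lay between 37 and 46.4 CPM (median 43.2) in SAL and between 46 and 54.8 CPM (median 49) in IUO, where IUO pup 3 was highest.

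Growth factor genes included 3 lower receptors among 17 tested (17.6%, against 6.88% of all genes). These were *Erbb2* (log2 fold change -0.47, SE 0.18) and *Erbb3* (log2 fold change -0.42, SE 0.19), which form the neuregulin receptor of oligodendrocytes and other glia, and *Gfra2*, the neurturin receptor (log2 fold change -0.32, SE 0.13). SAL pup 6 had 25.8 CPM of *Erbb3*, the other SAL pups between 10.9 and 16.5 CPM, and the number of lower members was 1 without SAL pup 6, IUO pup 3 or IUO pup 5. Without SAL pup 1, 3 lower and 2 higher members passed the limit. Of 20 excitatory neuron and cortical layer markers, *Lmo3* (log2 fold change 0.42, SE 0.17) and *Lmo4* (log2 fold change 0.37, SE 0.17), transcriptional cofactors, were higher and *Nxph4*, a neurexophilin of deep layers, was lower (log2 fold change -0.89, SE 0.39). These 3 were among 20 tested, where 6.88% of all genes passed. The number past the limit was 0 without SAL pup 2, 1 without SAL pup 4 or 6, 2 without IUO pup 2, 4, 5 or 6, and 5 without SAL pup 5. The list median was 0.15, between 0.0416 (without IUO pup 5) and 0.281 (without SAL pup 5) with a pup left out, and 0.386 among pups with Y-linked reads.

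Oligodendrocyte and astrocyte lists had medians below 0. Of 18 tested markers of mature oligodendrocytes and myelin, 17 were lower in IUO, their median lay at -0.59 (log2) against -0.0073 over all genes, and 3 (16.7%) passed an unadjusted p under 0.05, all lower, where 3.87% of all genes were lower at that limit. *Mal*, a proteolipid of compact myelin, lay between 12.9 and 105 CPM (median 60.2) in SAL and between 14.2 and 41.2 CPM (median 19.4) in IUO. SAL pup 6, at 12.9 CPM, was below every IUO pup and the other SAL pups were above 5 of the 6 IUO pups (log2 fold change -1.27, SE 0.48, adjusted p = 0.594 by edgeR). *Hapln2* lay between 0.618 and 20.8 CPM (median 3.90) in SAL and between 0.906 and 2.61 CPM (median 1.66) in IUO (log2 fold change -1.93, SE 0.76), and *Ermn*, a cytoskeletal protein of myelinating cells, between 3.01 and 12.7 CPM (median 7.79) and between 2.56 and 6.38 CPM (median 3.70) (log2 fold change -0.90, SE 0.42). Summed levels of the list ran from 1940 to 9970 CPM in SAL and from 2480 to 6160 CPM in IUO. Without SAL pup 6 the number of lower members past the limit was 13, without IUO pup 1 it was 8, without IUO pup 2 it was 5, and without SAL pup 3 or SAL pup 4 it was 1. The share of all genes past the limit in either direction was 8.77% without SAL pup 6, 7.21% without IUO pup 1 and 6.98% without IUO pup 2. It was 6.57% without SAL pup 3 and 5.57% without SAL pup 4. Comparing only pups with Y-linked reads gave a median of -1.11, and limma-voom put 14 members past the limit, where it passed 17.3% of all genes. PNO pups had summed levels between 3260 and 16000 CPM. Precursor cell markers had 0 of 12 members past the limit (median -0.10, from -0.181 without SAL pup 6 to -0.0358 without SAL pup 2), and *Bcas1*, of newly formed oligodendrocytes, had -0.44 (SE 0.27). Among 17 astrocyte markers 2 (11.8%) were lower at an unadjusted p under 0.05, against 3.87% of all genes, including *Acsbg1*, an acyl-CoA synthetase (log2 fold change -0.31, SE 0.090), and the median was -0.15. It was -0.00811 without SAL pup 6 and 0.0142 with the myelin score as a covariate, and without SAL pup 5 the number lower at that limit was 4.

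**Figure D5:**
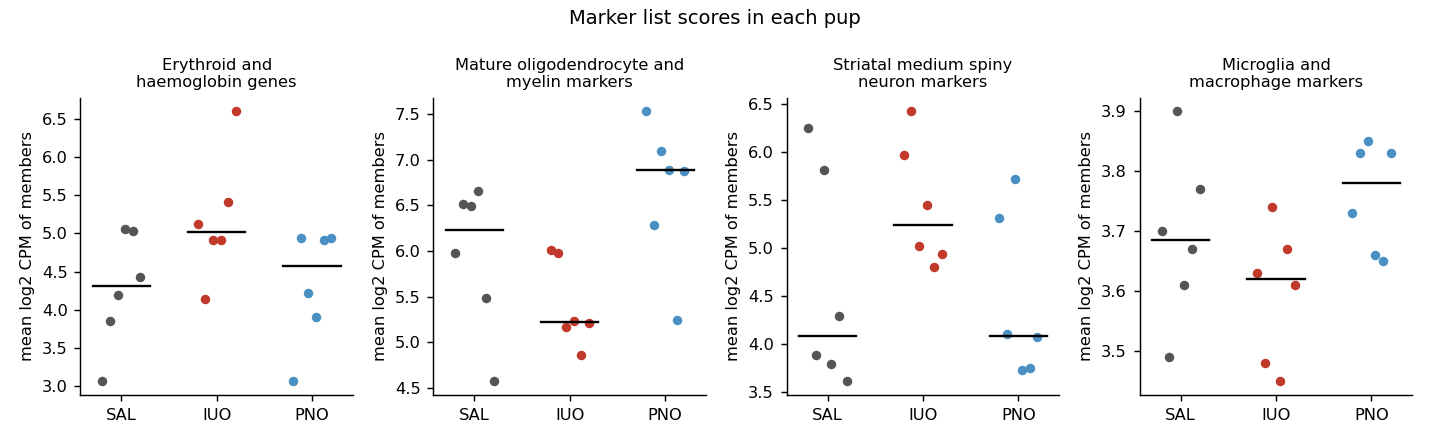
Mean log2 CPM of the members of 4 marker lists in every pup of SAL (grey), IUO (red) and PNO (blue), with the median of each group as a bar; axes do not start at 0. The groups overlap in each list; IUO pup 6 is highest in the erythroid list and SAL pup 6 lowest in the myelin list.

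Markers of striatal medium spiny neurons, a cell type of the neighbouring basal ganglia, were detected in a tissue labelled as cortex. All 21 were higher in IUO, with a median log2 fold change of 0.42, and 0 passed an unadjusted p under 0.05. The score of the list, the mean log2 CPM of its members, lay between 3.61 and 6.25 in SAL and between 4.80 and 6.42 in IUO. SAL pups 1 and 3 and IUO pups 1 and 2 were highest, and the other 4 SAL pups were below every IUO pup. *Foxp2*, also a deep-layer cortical gene, had 0.49 (SE 0.26) and *Pde10a*, a phosphodiesterase, 0.69 (SE 0.48) on the log2 scale. The median varied with the pups included. It was 0.184 without IUO pup 2, the lowest value with 1 pup left out. Without SAL pups 4 and 6 it was 0.0698, and with only pups that held Y-linked reads it was -0.165. Without SAL pup 1 it was 0.859 and 5 members were higher at an unadjusted p under 0.05, and 1 was without SAL pup 3, IUO pup 3 or IUO pup 5. The part of striatal tissue in the other results was not tested beyond a covariate, under which 240 genes passed the unadjusted p and 1.5-fold limits in place of 251, with 135 genes in both sets.

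Haemoglobin and other erythroid genes, transcripts of young red blood cells, were higher in IUO in all 8 tested, with a median log2 fold change of 0.98, and 4 passed an unadjusted p under 0.05. Over all genes 3.02% were higher at that limit. The promoters of these 4 are shown because the genes lay higher together. Each run is the 250 bases before the gene's start, from RefSeq on GRCr8, with matches in capitals to AGATAA or TGATAA, forms bound by GATA factors of the red cell lineage, and to CCACACCC, a form bound by factors of the Krüppel-like family, on either strand.
Alas2 (chrX:22895200-22895449, plus strand): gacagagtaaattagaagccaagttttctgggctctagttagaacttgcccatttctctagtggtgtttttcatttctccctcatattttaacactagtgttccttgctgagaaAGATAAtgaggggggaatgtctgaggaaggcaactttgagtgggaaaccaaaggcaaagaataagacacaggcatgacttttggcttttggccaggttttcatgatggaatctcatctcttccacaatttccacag
Hba-a2 (chr10:15829139-15829388, minus strand): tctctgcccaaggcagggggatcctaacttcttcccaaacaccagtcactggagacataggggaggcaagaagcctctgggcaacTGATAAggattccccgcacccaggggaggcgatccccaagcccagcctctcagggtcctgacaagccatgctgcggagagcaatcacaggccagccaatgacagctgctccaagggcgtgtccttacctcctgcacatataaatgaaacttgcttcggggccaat
Hba-a3 (chr10:15816944-15817193, minus strand): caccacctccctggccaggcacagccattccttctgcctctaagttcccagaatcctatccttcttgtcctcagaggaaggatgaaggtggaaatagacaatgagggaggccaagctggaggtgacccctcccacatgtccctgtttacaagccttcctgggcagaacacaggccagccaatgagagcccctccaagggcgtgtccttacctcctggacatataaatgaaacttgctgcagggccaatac
Hbb (chr1:167663722-167663971, minus strand): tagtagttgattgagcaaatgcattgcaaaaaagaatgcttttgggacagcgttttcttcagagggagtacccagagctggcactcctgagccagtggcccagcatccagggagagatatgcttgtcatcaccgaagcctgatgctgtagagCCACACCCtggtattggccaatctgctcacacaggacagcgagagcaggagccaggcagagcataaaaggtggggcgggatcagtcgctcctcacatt
AGATAA was found once before *Alas2*, TGATAA once before *Hba-a2* and CCACACCC once before *Hbb*, while the stretch before *Hba-a3* held none of them. Of the 10 promoters of the erythroid list that the table holds, tested or not, 5 held at least 1 of the motifs and 5 held none. Among 33469 rat promoter stretches of the same length, 10.3% held AGATAA, 7.97% TGATAA and 2.84% CCACACCC. A match is a description of these letters and not of a bound site.

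*Alas2*, the first enzyme of haem synthesis in red cell precursors, lay between 4.54 and 14.4 CPM (median 12.3) in SAL and between 8.76 and 65.8 CPM (median 19.1) in IUO. IUO pup 6 was highest, IUO pup 2 lay within the SAL range and the other 4 IUO pups lay above it, IUO pup 3 only just (log2 fold change 1.31, SE 0.44, adjusted p = 0.53 by edgeR). *Hbb*, of beta globin, lay between 172 and 712 CPM (median 393) in SAL and between 286 and 2105 CPM (median 597) in IUO (log2 fold change 0.99, SE 0.47). The 2 alpha globin genes *Hba-a2* (log2 fold change 1.29, SE 0.49) and *Hba-a3* (log2 fold change 1.40, SE 0.63) were also highest in IUO pup 6. Reads of near-identical globin copies can be divided between them by estimation, so the values of single globin genes are uncertain. Summed levels of the list ran from 482 to 2560 CPM in SAL, from 1110 to 7530 CPM in IUO and from 358 to 2210 CPM in PNO. Without IUO pup 6 the median was 0.442 and 1 member passed the limit, and without SAL pup 1, 2, 3 or 6 the number was 2. The median was 0.647, with 1 member past the limit, among pups with Y-linked reads. With the erythroid score as a covariate, a setting chosen after seeing the data, 2 genes passed an adjusted p under 0.05, *Tmem119* (log2 fold change -1.6, adjusted p = 0.0479 by edgeR) and a gene known by a clone name. Blood in the tissue and red cell precursors cannot be told apart in these libraries.

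Few markers of vessel and border cells passed the limit. Of 16 endothelial markers, 14 were lower, and *Slc16a1*, a lactate transporter of the blood-brain barrier (log2 fold change -0.20, SE 0.075), passed an unadjusted p under 0.05, a share of 6.25% near the 6.88% of all genes. The number was 2 without SAL pup 1, SAL pup 4 or IUO pup 1. It was 3 without SAL pup 6, where 8.77% of all genes passed, and 7 without SAL pups 4 and 6, where 5.31% did. Mural cell markers (12 tested, median -0.078, from -0.171 without SAL pup 5 to -0.0171 without SAL pup 1) and meningeal fibroblast and collagen markers (22 tested, median 0.043) had 0 members past the limit. The meningeal median was -0.117 without IUO pup 5, -0.0743 without IUO pup 3, -0.0567 without SAL pup 5, where 2 members were lower at the limit, and -0.0471 without SAL pup 4. Choroid plexus and ependymal markers were lower in 16 of 18, with a median of -0.34 and 0 past the limit, or 2 without SAL pup 6. Their summed level ran from 91.2 to 702 CPM in SAL and from 81.0 to 373 CPM in IUO, and the median was -0.0887 without SAL pup 3 and -0.748 among pups with Y-linked reads. Of 4 tested T cell and lymphocyte markers, 3 were higher in IUO, and the list median was 0.24 on the log2 scale. The remaining 1, *Trbc2*, a T cell receptor constant region, was lower and alone passed an unadjusted p under 0.05. Over all genes 3.87% were lower at that limit. *Trbc2* lay between 0.328 and 4.44 CPM (median 1.59) in SAL and between 0.350 and 0.960 CPM (median 0.438) in IUO. Its log2 fold change was -1.79 (SE 0.59).

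Stress hormone genes included 4 lower and 0 higher members past an unadjusted p under 0.05 among 20 tested, where 3.87% of all genes were lower at that limit. *Fkbp4*, a co-chaperone of the glucocorticoid receptor, lay between 159.7 and 192 CPM (median 171) in SAL and between 146 and 165 CPM (median 155) in IUO (log2 fold change -0.17, SE 0.058). *Tsc22d3*, a classical glucocorticoid target, had between 46 and 74.7 CPM (median 60.2) in SAL and between 45.8 and 59.8 CPM (median 50.6) in IUO (log2 fold change -0.26, SE 0.11). *Hsd11b1*, the enzyme that regenerates active glucocorticoid (log2 fold change -0.43, SE 0.18), and *Ddit4*, a stress-induced inhibitor of mTOR (log2 fold change -0.23, SE 0.11), were lower as well. All 4 overlapped between groups, the glucocorticoid receptor gene *Nr3c1* had log2 fold changes of 0.01 and 0.03 under its 2 identifiers, and the number past the limit was 1 without SAL pup 2 or IUO pup 5 and 2 without SAL pup 4 or IUO pup 3. Among 26 genes of apoptosis and cellular stress 4 passed the limit (15.4%, against 6.88% of all genes), and between 2 and 4 did so with a pup left out. Of these 4, 2 were higher, including *Casp9*, an initiator of apoptosis (log2 fold change 0.20, SE 0.089), and *Hmox1*, haem oxygenase (log2 fold change -0.33, SE 0.11), and *Hspa1a*, an inducible heat shock protein (log2 fold change -1.80, SE 0.74), were lower. Clock genes had 2 higher of 19 (10.5%, where 3.02% of all genes were higher), *Ciart* (log2 fold change 0.43, SE 0.16) and *Cry2* (log2 fold change 0.23, SE 0.11), both repressors of the clock. A single clock gene was higher at that limit without SAL pup 1, 2, 3 or 4 or IUO pup 3, 4 or 5, and 3 were without SAL pup 5 or 6.

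Innate immune genes past the unadjusted limit lay in both directions. In the Toll-like receptor 4 and cytokine list, *Irak1*, a kinase of the receptor complex (log2 fold change 0.14, SE 0.046), and *Il4r*, a receptor chain for interleukin 4 (log2 fold change 0.32, SE 0.11), were higher, and *Irak4*, the kinase upstream of *Irak1*, was lower (log2 fold change -0.37, SE 0.13) (3 of 18 tested, 16.7%, against 6.88% of all genes). Without SAL pup 6, 4 were higher and 1 lower. Of 31 interferon response and antigen presentation genes, *Rtp4* (log2 fold change -0.58, SE 0.21) and *Mx2* (log2 fold change -0.46, SE 0.19) were lower at an unadjusted p under 0.05, a share of 6.45% near the 6.88% of all genes. The number lower was 1 without IUO pup 4 or IUO pup 5.

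Nuclear-encoded subunits of oxidative phosphorylation were lower in 31 of 35 transcripts, with a median log2 fold change of -0.081, and *Cycs*, cytochrome c, alone passed the limit (log2 fold change -0.41, SE 0.14), a share of 2.86% against 6.88% of all genes. Without SAL pup 6, 4 passed and the median was -0.163, and without SAL pup 4 the median was -0.0439. With the myelin score as a covariate 17 were higher and 18 lower. Mitochondrially encoded mRNAs (12 tested, median -0.062) and cholesterol synthesis genes (20 tested, median 0.048) had 0 members past the limit, *Mt-nd2* having -0.29 (SE 0.21) and *Hsd17b7* 0.24 (SE 0.12) on the log2 scale. The mitochondrial median was 0.138 without SAL pup 4, where 10 of 12 were higher, and 0.0233 without IUO pup 5. Of the cholesterol genes, 2 were higher at the limit without SAL pup 3, SAL pup 5 or IUO pup 6, and the median was 0.00484 without IUO pup 1. Of 26 cell cycle genes, *Mcm6*, of the replicative helicase, alone passed the limit and was higher (log2 fold change 0.23, SE 0.089), a share of 3.85% against 6.88% of all genes. No cell cycle gene was higher at the limit without IUO pup 2, and 1 higher and 2 lower ones passed without IUO pup 1. Replication-dependent histones were lower in 7 of 7 tested, with a median of -0.30. *Hist1h2bcl1* lay between 12 and 21.7 CPM (median 17.2) in SAL and between 7.80 and 17.4 CPM (median 10) in IUO (log2 fold change -0.67, SE 0.17), and *Hist1h2bk* was lower too (log2 fold change -1.05, SE 0.33). These 2 made up 28.6% of the tested histones, where 3.87% of all genes were lower at the limit, and without SAL pup 6 the number was 4. *Hist1h2bcl1* and *Hist1h2bk* also belong to the terms that the study drew from these same samples, so their share is not independent evidence. IUO pup 1 had the highest histone score of the IUO pups. Histone copies are alike in sequence, so reads may be shared between them, and without a filter on low counts 15 of 28 histone transcripts were higher.

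Genes of the terms that the study drew from this comparison were examined last, and since they were chosen on these samples their direction is not independent evidence. Of 44 tested, 12 were higher and 6 lower in IUO at an unadjusted p under 0.05 (40.9%, against 6.88% of all genes), and 0 passed the adjusted limit. Beside genes already described, *Pik3r5*, a regulatory subunit of phosphoinositide kinase (log2 fold change 0.56, SE 0.16), and *Aox4*, an aldehyde oxidase (log2 fold change 1.25, SE 0.40), were higher, and *Col11a1*, a fibrillar collagen, lay between 32.9 and 66.3 CPM (median 50.3) in SAL and between 22 and 46.4 CPM (median 28.6) in IUO (log2 fold change -0.65, SE 0.21). The study's list of genes linked to psychiatric and other diseases was also drawn from its IUO and PNO results, so its share is not independent evidence either. Of its members, 3 of 28 passed the limit (10.7%, against 6.88% of all genes), all higher: *Itgal*, an integrin of leukocytes (log2 fold change 0.67, SE 0.18), *Csnk1e*, a casein kinase of the clock (log2 fold change 0.24, SE 0.086), and *Aldh2*, mitochondrial aldehyde dehydrogenase (log2 fold change 0.31, SE 0.12). Without SAL pup 1, 6 were higher at the limit, and without SAL pup 6, 2 were higher and 1 lower. *Itgal* lay between 1.58 and 2.68 CPM (median 2.10) in SAL and between 2.46 and 4.49 CPM (median 3.13) in IUO, with overlap.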

How the data were processed

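RNA-seq tables of 18 P14 pups were used, 6 each of SAL, IUO and PNO, with groups and replicate numbers read from the sample titles. Each table lists 32623 genes. The authors deposited expected counts, which are estimates: a read that fits more than 1 gene is split between them, and no scaling is applied. Deposited TPM, scaled by gene length and library, entered no test, and FPKM was not used. Aligner, quantification program, annotation release and genome build are not given in the sources used here, and neither is strand-specific counting, so that reads of a gene and an antisense partner may not be separable. No pair of pups had identical values.

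For testing, the counts were rounded. The edgeR 4.0.16 quasi-likelihood test (R 4.3.3, TMM, filterByExpr by group, two-sided) was fitted to all 18 pups as 1 model of 3 groups, with p-values adjusted by Benjamini-Hochberg over the 15703 genes kept by the filter. Genes called had an adjusted p under 0.05 and differed by at least 1.5-fold. Levels are CPM after TMM. Log2 CPM values, as in list scores, SDs and distances, used a prior count of 2, and log2 fold changes are those of the edgeR fit. SE is the log2 fold change divided by the root of the F statistic. Totals per pup lay between 18381819 and 26084780, and the median SE over genes was 0.145. The share of squared distance between groups was tested by exact permutation. Genes named are the 12 higher and 12 lower with the smallest p among genes with a symbol of their own, members of 40 gene lists with an unadjusted p under 0.05 (up to 6 per list, or the 2 with the smallest p where fewer than 2 passed) and every opioid receptor and peptide gene. Some genes named by this rule are not reported here. The members and lists were chosen with earlier results of these data known. Gene order and promoter sequences came from RefSeq tables on GRCr8, in which 10 genes of the erythroid list had a promoter entry.

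Alternatives were other size factors, unscaled libraries, DESeq2 1.42.0, voom with quality weights in limma 3.58.1, other filters, only the 12 pups, a replicate block, marker scores as covariates and each pup left out in turn. Leaving out SAL pups 4 and 6, keeping only pups with over 10 CPM of Y-linked reads, and the striatal and erythroid covariates were chosen after seeing the data. The fits were tested on simulated data. Python 3.11.15 with numpy 2.4.6, pandas 2.3.3 and matplotlib 3.10.9 made the tables and plots.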

Additional observations from a re-analysis of the deposited data

Results flagged for a closer look

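In groups of 6 pups, the pup at either end was compared with the others for each of 120 of the named genes and for 40 list scores, and 20 of 320 groups (6.25%) had 1 pup far from the rest. Chance gives about 1 in 20 such groups.

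Among leading genes, SAL pup 3 was low in *Phf13* (15.6 CPM, others from 17.4 to 18.0) and IUO pup 6 high in *Tkfc* (4.56 CPM, others from 3.54 to 3.86). IUO pup 2 was high in *Oprk1* (8.56 CPM, others from 3.78 to 4.61) and in *Oprm1* (1.23 CPM, others from 0.626 to 0.809). In glutamate receptor genes, SAL pup 1 was high in *Grik2* (88.3 CPM, others up to 65.5), SAL pup 4 low in *Cacng8* (31.3 CPM, others from 43.1) and IUO pup 1 high in *Grin2c* (81.5 CPM, others up to 67.1). IUO pup 3 was high in *Asns* (54.8 CPM, others up to 48.7) and IUO pup 2 low in *Ndufs1*, a subunit of respiratory complex I (121.0 CPM, others up to 134.0).

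SAL pup 5 was low in the astrocyte gene *Acsbg1* (154.0 CPM, others from 194.0) and in *Crabp2*, a retinoic acid binding protein of the meninges (3.31 CPM, others from 7.0). SAL pup 6 was low in *Esam*, an endothelial adhesion gene (20.2 CPM, others from 27.5), and SAL pup 4 in the pericyte gene *Rgs5* (14.7 CPM, others from 23.7). SAL pup 5 also stood apart in the Y-linked genes *Eif2s3y* (0.168 CPM, others from 65.1) and *Kdm5d* (0.0419 CPM, others from 37.1) and in their score (-2.44, others from 5.79). Scores on the log2 CPM scale were low in SAL pup 4 for acetylcholine and cannabinoid genes (3.59, others from 3.76), low in SAL pup 6 for oxidative phosphorylation (6.95, others from 7.33) and for histones (1.75, others from 2.15), and high in IUO pup 1 for histones (2.27, others up to 1.73).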

How the results depend on the processing

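The count of 0 genes called by edgeR became 22 with DESeq2, 17 with limma-voom, 2 with the erythroid score as covariate, and between 0 and 1 when a pup was left out, the 1 gene (AABR07028995.2) appearing without SAL pup 2. The 251 genes at an unadjusted p under 0.05 and 1.5-fold became 486 with limma-voom, 652 without a filter, 501 among pups with Y-linked reads, 414 with the erythroid covariate and 1081 without a fold threshold, and lay between 223 and 352 with a pup left out. Of the 251, 37.5% were higher in IUO, against 54.9% with limma-voom, 52.2% of 295 with the myelin covariate, 52.5% of 200 without SAL pups 4 and 6, 26.5% among pups with Y-linked reads and 51.0% with the erythroid covariate. The share of distance stayed between 9.73% and 13% (exact p from 0.126 to 0.446) with a pup left out.

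Replicate numbers did not pair the pups: correlations of same-numbered pups lay between -0.134 and 0.237 (mean -0.0266), and 0 IUO pups correlated best with their own number. With the numbers as a replicate block, 0 genes were called and 246 passed the unadjusted limits, 53.7% of them higher.

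Reversals of log2 fold change were confined to genes that did not pass an unadjusted p under 0.05, except *Hbb* with the erythroid covariate (-0.161). Among pups with Y-linked reads they were 0.029 for *Oprl1*, -0.287 for *Pdyn*, -0.695 for *Penk*, -0.212 for *Oprm1*, -0.00346 for *Foxp2* and 0.0195 for *Kdm5d*. With the striatal covariate they were 0.0135 for *Oprl1*, -0.0592 for *Pdyn*, -0.103 for *Oprd1*, -0.471 for *Penk* and -0.0614 for *Oprm1*. With the myelin covariate they were 0.107 for *Pnoc*, 0.0334 for *Mt-nd4l* and 0.000457 for *Bcas1*. The Y-linked covariate gave 0.0837 for *Eif2s3y* and 0.124 for *Kdm5d*, and the erythroid covariate 0.0578 for *Kdm5d*. Without SAL pups 4 and 6 *Penk* was at -0.0968. With a pup left out, values ranged from -0.256 to 0.104 (without SAL pup 4) for *Pnoc*, from -0.124 (without IUO pup 2) to 0.943 for *Penk*, from -0.116 to 0.606 for *Oprm1*, reversed without SAL pup 2, 3, 4 or 5 or IUO pup 2, and from -0.215 to 0.0624 (without SAL pup 4) for *Mt-nd4l*. The cause was not tested. DESeq2 put 26 and limma-voom 22 of the 123 named genes at an adjusted p under 0.05. Unknown litters, unlabelled sex and levels near 1 CPM limit what these counts can show.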

Other observations

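A gene known only by the clone name Rn50_5_0009.1 was at 0 in 5 of 6 SAL pups and at 0.0468 CPM in the other, while 5 of 6 IUO pups lay between 0.668 and 1.62 CPM and IUO pup 6 was at 0. It was singled out after its values were seen, and its adjusted p by edgeR was 0.186.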
